A study of Homo sapiens with 12 samples.

Results

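The 9 genes described here make or control the peptide display of HLA class I molecules: the heavy chains HLA-B, HLA-C, HLA-E and HLA-F, the light chain B2M, the peptide pump subunits TAP1 and TAP2, the loading factor TAPBP and the transcriptional coactivator NLRC5. They were found on 12 one-color arrays by the RefSeq transcript that each probe carries, and 15 probes of the 50599 on the array belong to them, among 20503 named genes. HA22T and PLC5 are human hepatocellular carcinoma (HCC) cell lines, grown in DMEM with fetal bovine serum. Each line was transfected with a non-targeting siRNA (siControl) or with a pool of siRNAs against GALNT1 (siGALNT1), an enzyme that starts O-glycosylation, at 10 nM with Lipofectamine RNAiMAX, and was lysed for RNA 48 h later. The 12 arrays thus fall into 4 groups of 3. The study asked which genes change when GALNT1 is knocked down in either line, and the same arrays also show how far the class I genes differ between the lines. Each line is a single line, so a difference between lines is a difference between these cultures. The sources give triplicate RNA for each group, and describe independent knockdowns for RT-PCR without saying so of the arrays, so the p-values measure the spread between these samples, which may be technical.

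Class I molecules present peptides from inside the cell to CD8+ T cells and natural killer cells. Proteasomes cut proteins into peptides, the TAP1 and TAP2 dimer pumps them into the endoplasmic reticulum, TAPBP (tapasin) bridges the pump to the heavy chain and B2M, and the loaded complex travels to the cell surface. Interferon raises the transcription of most of these genes through short promoter elements, and NLRC5 acts as a class I transactivator at an adjacent promoter module. Liver parenchymal cells are known for a low surface level of class I, and tumors often lose parts of the pathway. Surface protein was not measured on these arrays.

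Promoters of the genes were searched for short motifs of such elements, and 7 of the 9 genes had a promoter in RefSeq (GRCh38.p14). HLA-E and NLRC5 had none there. Each window ran from 250 bases before to 50 bases after the start of the gene, 300 bases in all, on the strand of the gene from 5′ to 3′. The windows of 5 genes are printed here: 2 heavy chains, the light chain and TAP1, which differed between the lines, and TAPBP, which did not pass the test. Capitals mark GAAANNGAA, the core of the interferon-stimulated response element, AAGNGAAAC, the form it takes in heavy chain promoters, CCAAT, the box bound by NF-Y, TGACG, the center of the X2 element, and GGGGATTCC, the start of a kappa-B site, each searched on both strands. HLA-B lies at chr6:31357130-31357429 (minus strand), HLA-C at chr6:31272043-31272342 (minus), B2M at chr15:44711267-44711566 (plus), TAP1 at chr6:32853655-32853954 (minus) and TAPBP at chr6:33314029-33314328 (minus).
HLA-B: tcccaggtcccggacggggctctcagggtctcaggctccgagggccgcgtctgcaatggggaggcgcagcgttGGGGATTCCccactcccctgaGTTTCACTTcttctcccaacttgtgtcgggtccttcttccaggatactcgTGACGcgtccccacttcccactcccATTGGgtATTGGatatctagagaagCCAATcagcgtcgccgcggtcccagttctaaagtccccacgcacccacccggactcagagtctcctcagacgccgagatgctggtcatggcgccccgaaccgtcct
HLA-C: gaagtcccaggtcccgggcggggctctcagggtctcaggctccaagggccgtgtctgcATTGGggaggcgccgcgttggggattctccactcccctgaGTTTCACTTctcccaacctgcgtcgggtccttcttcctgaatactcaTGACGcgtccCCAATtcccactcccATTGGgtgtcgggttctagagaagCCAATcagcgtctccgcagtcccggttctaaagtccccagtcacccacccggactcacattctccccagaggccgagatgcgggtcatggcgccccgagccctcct
B2M: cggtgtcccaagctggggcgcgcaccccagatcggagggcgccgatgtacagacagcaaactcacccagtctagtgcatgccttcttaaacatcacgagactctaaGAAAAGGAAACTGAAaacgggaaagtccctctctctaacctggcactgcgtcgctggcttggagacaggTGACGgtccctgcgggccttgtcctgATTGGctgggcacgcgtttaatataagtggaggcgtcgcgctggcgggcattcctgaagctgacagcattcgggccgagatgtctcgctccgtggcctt
TAP1: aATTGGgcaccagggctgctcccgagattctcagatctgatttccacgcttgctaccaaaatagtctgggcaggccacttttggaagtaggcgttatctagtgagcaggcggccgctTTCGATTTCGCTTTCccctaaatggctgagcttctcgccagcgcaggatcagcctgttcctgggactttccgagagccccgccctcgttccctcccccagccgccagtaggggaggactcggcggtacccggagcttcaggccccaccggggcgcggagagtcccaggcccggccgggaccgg
TAPBP: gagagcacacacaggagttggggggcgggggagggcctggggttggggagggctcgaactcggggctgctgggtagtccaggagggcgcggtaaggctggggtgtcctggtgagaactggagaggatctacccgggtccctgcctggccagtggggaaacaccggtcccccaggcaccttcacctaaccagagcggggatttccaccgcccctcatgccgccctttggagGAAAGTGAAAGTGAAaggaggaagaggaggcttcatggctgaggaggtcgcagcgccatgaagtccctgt

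An interferon-type motif was found in a window of each of the 7 genes. GAAANNGAA occurred in B2M, HLA-F, TAP1, TAP2 and TAPBP, against 8.11% of 35116 RefSeq promoters. In B2M, TAP1 and TAPBP it occurred as 2 overlapping copies, which lay at -144 to -130 in B2M, -133 to -119 in TAP1 and -20 to -6 in TAPBP, counted from the start of the gene. TAP1 had another listed start, at chr6:32852712-32853011, whose window held none of the motifs. AAGNGAAAC occurred in the 3 heavy chains with a window, HLA-B, HLA-C and HLA-F, against 1.53% of promoters, and in HLA-F it overlapped GAAANNGAA. The NF-Y box, which is common (34.6% of promoters), was present 3 times in HLA-B, 4 times in HLA-C, 2 times in HLA-F and 1 time each in B2M and TAP1. TGACG (24.6% of promoters) was present in HLA-B, HLA-C, B2M and TAP2. GGGGATTCC was present in HLA-B alone among the 7 genes, and in 0.285% of promoters. These matches are letters of the reference sequence and not of the 2 lines, whose own promoters were not read. TAPBP, which did not pass the test between the lines, held 2 copies of the interferon core and neither the NF-Y box nor TGACG. Any link between the motifs and the differences between the lines was not tested.

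The targeted gene was checked first. GALNT1 (probe A_33_P3210218) had log2 levels of 1.32, 0.75 and 0.85 in HA22T siControl and -3.15, -3.68 and -5.55 in HA22T siGALNT1. In PLC5 the levels were 0.87, 0.37 and 0.61 with siControl and -1.93, -3.47 and -3.92 with siGALNT1. A log2 level is the log2 of the background-subtracted spot intensity minus the 75th percentile of its array. Every siGALNT1 array lay below every siControl array in both lines (two-sided exact permutation p = 0.1, the smallest that 3 against 3 arrays allow). Between 36679 and 48873 of the spots on an array were well above background, and no array had a saturated spot (0). With 3 arrays a group, the precision of each value is set by their number. Slide 1 carried 8 arrays, all 6 of HA22T and both replicate 1 arrays of PLC5, and slide 2 carried the remaining 4 of PLC5.

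The lines were also compared with the cell type that their labels give. In HA22T, 9 of 10 hepatocyte markers were lower than in PLC5 with either siRNA at an adjusted p below 0.05. The exception was AFP (-0.30 on the log2 scale with siControl). The summed linear level of the 10 markers, in units of the 75th percentile of the array, was 2.38 to 2.92 in HA22T siControl against 137 to 219 in PLC5 siControl, and 2.35 to 2.72 against 119 to 223 with siGALNT1. Of the markers, albumin (ALB), the main plasma protein, had a mean log2 level of -4.37 in HA22T siControl and -0.41 in PLC5 siControl, and TTR was well above background on none of the HA22T siGALNT1 arrays. The 4 epithelial markers summed to 127 to 214 in HA22T siControl and 74.7 to 180 in PLC5 siControl. The 6 leukocyte markers summed to 25.3 to 46.4 and 30.2 to 47.3 with siControl, and to 41.6 to 66.5 and 22.4 to 38.6 with siGALNT1. Most of that sum came from 1 probe of PTPRC, the common leukocyte antigen, at a mean log2 level of 5.05 in HA22T siControl, while of the other PTPRC probes A_33_P3309526 was well above background on each of the 5 arrays where it had a value, and A_33_P3364811 on 0 arrays. The 3 endothelial markers summed to 0.46 to 0.634 in HA22T siControl and 4.53 to 5.89 in PLC5 siControl. That gap came mostly from PECAM1, at mean log2 levels of -3.16 in HA22T siControl and 2.25 in PLC5 siControl. CDH5 (-3.08 and -2.76) and VWF (-1.60 and -1.53) differed little. The fibroblast markers stayed at or under 0.13 in every group. ALB, TTR, AFP, PTPRC and the epithelial and endothelial markers are named as checks, after their values were seen. With siControl, the markers called higher and lower in HA22T were 2 and 1 of 6 for leukocytes, 0 and 1 of 3 for endothelium and 0 and 0 of 4 for epithelium. The part of these differences in the class I values was not tested.

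Between the lines, 7 of the 9 genes were higher in HA22T than in PLC5 with siControl and 0 were lower. HLA-B, HLA-C, HLA-F, B2M, TAP1, TAP2 and NLRC5 passed the test (adjusted p below 0.05 in limma, adjusted over all counted probes), by 2.52-fold for TAP1 to 8.93-fold for TAP2. The same 7 genes passed it with siGALNT1, on the other 6 arrays. Both comparisons came from 1 fit that takes the spread from all arrays, so their p-values are not independent. HLA-E and TAPBP did not pass in either comparison. When all probes of a gene were averaged, 5 of the 9 genes passed with either siRNA, as HLA-F and TAP2 have other probes that do not show the difference. Among all genes read from 1 probe each, 14.2% were called higher in HA22T with siControl and 11.8% with siGALNT1. Of all counted probes, 11.0% were called higher and 11.5% lower with siControl, and 10.0% and 12.9% with siGALNT1, while 8 of the 15 probes of the class I genes were called higher and 0 lower in both. The median difference of the 9 genes was 1.72 with siControl and 1.55 with siGALNT1 on the log2 scale, against 0.06 and 0.15 for the reading probes of all named genes. Every HA22T array lay above every PLC5 array for 8 of the 9 genes with siControl and for 7 with siGALNT1, where 22.6% and 19.3% of all probes did so. In cultures lysed whole, fewer cells with a transcript and less of it in each cell cannot be told apart.

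**Figure D1:**
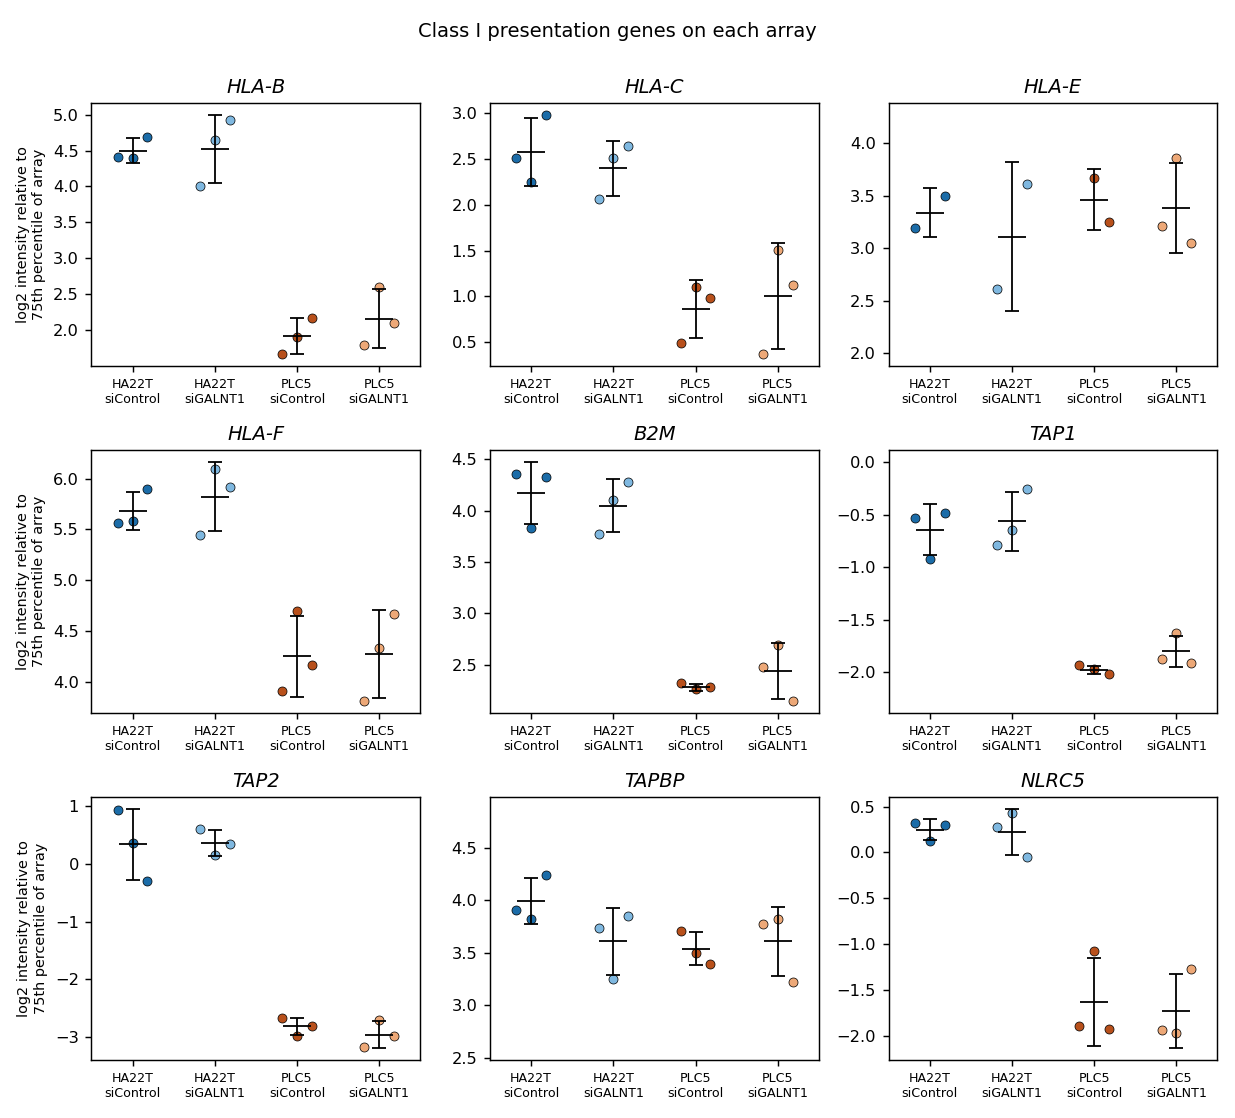
Log2 level of each class I gene (y axis, log2 intensity relative to the 75th percentile of the array) on every array of the 4 groups on the x axis. Points are arrays, horizontal bars are group means and whiskers are SD. In 7 panels all 6 HA22T points lie above all 6 PLC5 points, while HLA-E and TAPBP overlap. Each panel has its own y axis, and heights cannot be compared between genes.

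Among the heavy chains, HLA-B carries peptides for T cell recognition and is one of the most variable human genes. HLA-B (probe A_33_P3379947) had log2 levels of 4.41, 4.39 and 4.69 on the HA22T siControl arrays and 1.67, 1.91 and 2.17 on the PLC5 siControl arrays. With siGALNT1 it had 4.01, 4.64 and 4.92 in HA22T and 1.79, 2.60 and 2.10 in PLC5. The lowest HA22T array thus lay well above the highest PLC5 array. The difference was 2.58 on the log2 scale with siControl (standard error 0.31, 5.97-fold, adjusted p = 0.000106 from limma) and 2.36 with siGALNT1 (5.13-fold, adjusted p = 0.000219 from limma). The other HLA-B probe (A_33_P3424800) gave smaller differences in the same direction, 1.57 with siControl (adjusted p = 0.00319 from limma) and 1.06 with siGALNT1 (adjusted p = 0.0287 from limma).

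HLA-C is the heavy chain best known as a ligand of killer cell receptors. HLA-C (A_33_P3330109) had log2 levels of 2.51, 2.25 and 2.98 in HA22T siControl and 0.49, 1.10 and 0.98 in PLC5 siControl. With siGALNT1 the levels were 2.06, 2.51 and 2.64 in HA22T and 0.37, 1.51 and 1.12 in PLC5. The groups of the 2 lines did not overlap, although the PLC5 siGALNT1 arrays were spread widely (SD 0.58). The difference was 1.72 with siControl (standard error 0.34, 3.31-fold, adjusted p = 0.00359 from limma) and 1.40 with siGALNT1 (2.64-fold, adjusted p = 0.0123 from limma). With the test named in the methods of the study, on the same values, the siGALNT1 difference did not pass (adjusted p = 0.101), and neither did that of HLA-F below (adjusted p = 0.0615). HLA-B, HLA-C and the other heavy chains share long stretches of nearly identical sequence, and the alleles of the lines can differ from the reference, so how much of each signal came from which gene or allele was not tested.

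HLA-F is a nonclassical heavy chain that also reaches the surface without peptide. HLA-F (A_33_P3379939) had log2 levels of 5.56, 5.58 and 5.90 in HA22T siControl and 3.91, 4.69 and 4.16 in PLC5 siControl. With siGALNT1 the levels were 5.44, 6.09 and 5.92 in HA22T and 3.81, 4.33 and 4.67 in PLC5. All HA22T arrays were higher than all PLC5 arrays. The difference was 1.43 with siControl (standard error 0.31, 2.69-fold, adjusted p = 0.00631 from limma) and 1.55 with siGALNT1 (2.92-fold, adjusted p = 0.00405 from limma). A probe for another HLA-F transcript (A_33_P3379967) disagreed. Its log2 levels were 0.27, 0.59 and 0.88 in HA22T siControl and 0.79, 1.07 and 0.79 in PLC5 siControl, and these groups overlapped (difference -0.30, adjusted p = 0.706 from limma). With siGALNT1 the difference of that probe was -1.34 (adjusted p = 0.0982 from limma), from 2 HA22T arrays and 3 PLC5 arrays. The mean over both HLA-F probes differed by 0.56 with siControl (adjusted p = 0.651) and by 1.18 with siGALNT1 (adjusted p = 0.278), so the HLA-F call holds for the brighter probe alone.

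HLA-E, which displays peptides cut from the leader of other heavy chains to natural killer cells, did not follow the other heavy chains. HLA-E (A_32_P460973) had log2 levels of 3.19 and 3.50 on 2 HA22T siControl arrays and 3.67 and 3.25 on 2 PLC5 siControl arrays. With siGALNT1 it had 2.61 and 3.61 on 2 HA22T arrays and 3.21, 3.86 and 3.05 on the 3 PLC5 arrays. The other 3 of the 12 arrays had a flagged spot, which was left out. The values of the 2 lines were interleaved. The difference was -0.12 with siControl (95% interval -1.14 to 0.91, adjusted p = 0.887 from limma) and -0.26 with siGALNT1 (95% interval -1.20 to 0.67, adjusted p = 0.687 from limma). The sign of the siControl value depended on the scaling and on the flagged spots, as given under the processing alternatives.

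B2M, the light chain that every class I heavy chain needs to fold, was measured by 10 spots of 1 probe (A_23_P37441). The log2 levels were 4.36, 3.83 and 4.33 in HA22T siControl and 2.32, 2.26 and 2.28 in PLC5 siControl. With siGALNT1 they were 3.77, 4.10 and 4.28 in HA22T and 2.48, 2.69 and 2.15 in PLC5. The 6 arrays of one line stood clear of the 6 of the other, and the PLC5 siControl arrays lay unusually close together (SD 0.03). The difference was 1.89 with siControl (standard error 0.25, 3.70-fold, adjusted p = 0.000264 from limma) and 1.61 with siGALNT1 (3.06-fold, adjusted p = 0.00086 from limma).

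The pump subunits differed between the lines as well. TAP1 (A_23_P59005) had log2 levels of -0.53, -0.92 and -0.48 in HA22T siControl and -1.93, -1.97 and -2.02 in PLC5 siControl. With siGALNT1 the levels were -0.79, -0.64 and -0.25 in HA22T and -1.87, -1.63 and -1.91 in PLC5. No array of one line reached the other line. The difference was 1.33 with siControl (standard error 0.24, 2.52-fold, adjusted p = 0.0018 from limma) and 1.24 with siGALNT1 (2.37-fold, adjusted p = 0.00297 from limma).

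TAP2, the partner of TAP1 in the pump, had the largest difference of the 9 genes. TAP2 (A_33_P3214650) had log2 levels of 0.93, 0.37 and -0.29 in HA22T siControl and -2.68, -2.98 and -2.81 in PLC5 siControl. With siGALNT1 the levels were 0.61, 0.16 and 0.35 in HA22T and -3.17, -2.71 and -2.99 in PLC5. The HA22T siControl arrays were spread more than any other TAP2 group (SD 0.61), yet all lay far above PLC5. The difference was 3.16 with siControl (standard error 0.31, 8.93-fold, adjusted p = 2.67e-05 from limma) and 3.33 with siGALNT1 (10.0-fold, adjusted p = 1.95e-05 from limma). A dim probe for another TAP2 transcript (A_23_P368067) was well above background on 9 of the 12 arrays and gave -1.26 with siControl (standard error 0.93, adjusted p = 0.384 from limma) and -0.44 with siGALNT1 (adjusted p = 0.773 from limma). Averaged over both probes, TAP2 differed by 0.95 with siControl (adjusted p = 0.236) and by 1.44 with siGALNT1 (adjusted p = 0.0673).

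TAPBP encodes tapasin, which holds empty class I molecules at the pump until a peptide fits. TAPBP (A_23_P365719) had log2 levels of 3.91, 3.82 and 4.24 in HA22T siControl and 3.71, 3.50 and 3.39 in PLC5 siControl. With siGALNT1 the levels were 3.74, 3.25 and 3.85 in HA22T and 3.77, 3.82 and 3.22 in PLC5. The siControl groups did not overlap and the siGALNT1 groups did. The siControl difference was 0.46 (95% interval -0.13 to 1.05, adjusted p = 0.267 from limma, two-sided exact permutation p = 0.1). The siGALNT1 difference was 0.01 (95% interval -0.58 to 0.60, adjusted p = 0.988 from limma) and took the other sign with quantile normalization (-0.17). The other 2 TAPBP probes gave 0.43 and -0.27 with siControl and 0.30 and -0.12 with siGALNT1, all with adjusted p of 0.435 or higher in limma.

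NLRC5 is recruited to class I promoters and raises the transcription of heavy chains, B2M and TAP1. NLRC5 (A_32_P416583) had log2 levels of 0.32, 0.13 and 0.30 in HA22T siControl and -1.89, -1.07 and -1.92 in PLC5 siControl. With siGALNT1 the levels were 0.28, 0.43 and -0.05 in HA22T and -1.94, -1.97 and -1.27 in PLC5. The highest PLC5 array stayed below the lowest HA22T array. The difference was 1.87 with siControl (standard error 0.30, 3.66-fold, adjusted p = 0.000958 from limma) and 1.95 with siGALNT1 (3.85-fold, adjusted p = 0.000793 from limma). A dim NLRC5 probe (A_23_P26583) was well above background on 3 of 3 HA22T siControl arrays and on 0 PLC5 siControl arrays. Its log2 levels were -5.12, -4.65 and -4.28 in HA22T siControl and -4.39, -6.15 and -8.89 in PLC5 siControl. These groups overlapped, and the difference did not pass the test (1.79, adjusted p = 0.216 from limma).

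**Figure D2:**
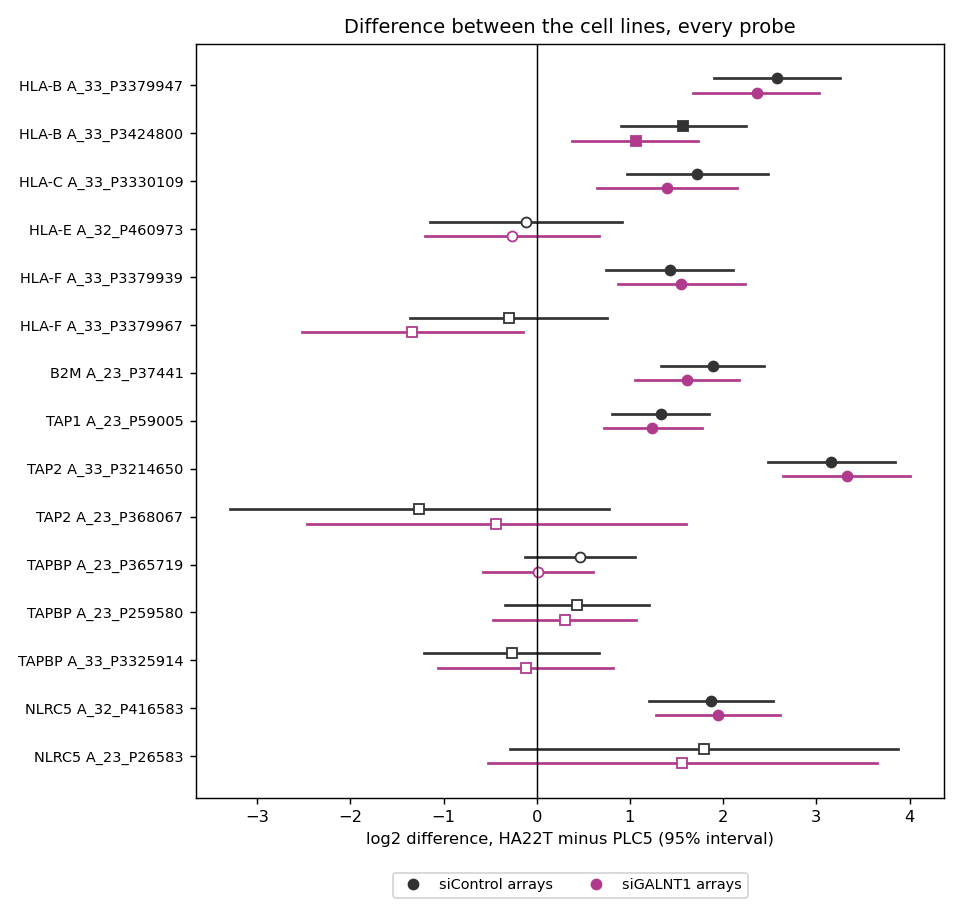
Difference between HA22T and PLC5 for each of the 15 probes (x axis, log2, with 95% intervals from the fit), with siControl in black and siGALNT1 in purple. Circles are the probes that stand for their gene, squares are the other probes, and filled symbols passed an adjusted p of 0.05. The filled symbols all lie to the right of 0, at 1.06 to 3.33. The squares of HLA-F, TAP2, TAPBP and NLRC5 are open, as are the circles of HLA-E and TAPBP.

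The slide was checked because it held unequal numbers of arrays of the lines. With the slide as a block in the fit, the 7 genes still passed, with differences from 1.35 (TAP1) to 3.19 (TAP2) with siControl and from 1.26 (TAP1) to 3.36 (TAP2) with siGALNT1. Slide 1 alone holds all HA22T arrays and 1 PLC5 array of each treatment, whose spread is then taken from the other groups. On it, the siControl differences were 2.83 for HLA-B, 2.09 for HLA-C, 1.77 for HLA-F, 1.86 for B2M, 1.29 for TAP1, 3.01 for TAP2 and 2.14 for NLRC5. The siGALNT1 differences were 2.73 for HLA-B, 2.04 for HLA-C, 2.01 for HLA-F, 1.57 for B2M, 1.31 for TAP1, 3.54 for TAP2 and 2.16 for NLRC5. TAP1 did not pass there (adjusted p = 0.109 and 0.0993), nor did B2M with siGALNT1 (adjusted p = 0.0632). Slide 2 holds PLC5 arrays only and gives no difference between lines.

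Related genes of class I presentation were counted by lists. Of the proteasome subunits and activators that shape peptides for class I, 1 of 5 was called higher in HA22T with siControl. This was PSMB8, a catalytic subunit of the immunoproteasome, whose log2 levels were 2.59, 1.80 and 2.49 in HA22T siControl and -2.03, -1.29 and -1.99 in PLC5 siControl. The PSMB8 groups were far apart, with a difference of 4.06 (standard error 0.31, adjusted p = 3.68e-06 from limma). On chromosome 6 the genes of this stretch follow in the order HLA-DOB, TAP2, PSMB8, PSMB8-AS1, TAP1 and PSMB9 in the RefSeq table. PSMB9, another immunoproteasome subunit beside TAP1, was examined after the values had been seen, and had log2 levels of 6.21, 5.76 and 5.86 in HA22T siControl and 6.06, 6.18 and 5.91 in PLC5 siControl. These groups overlapped (difference -0.11, adjusted p = 0.838 from limma), so neighbors in this stretch differed in how far they were apart between the lines. The third catalytic subunit, PSMB10, also examined after the values had been seen, differed by 1.24 (adjusted p = 0.0592 from limma).

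The constitutive counterparts of these subunits (0 of 3) and the folding and loading factors (0 of 4) had no call with siControl. With siGALNT1 the counts of these lists were 0 of 3 and 1 of 4, the latter lower in HA22T (CANX, a lectin chaperone of new glycoproteins, at -1.10, adjusted p = 0.0117 from limma, named after its value was seen). Of 3 peptide trimming enzymes, ERAP2, an aminopeptidase of the endoplasmic reticulum, was lower in HA22T (-1.69, adjusted p = 0.00247 from limma). Of the other heavy chains and relatives, 7 of 8 were counted, and 2 were lower in HA22T and 0 higher with siControl. FCGRT, the heavy chain of the neonatal Fc receptor, which also pairs with B2M, differed by -4.38 on the log2 scale (adjusted p = 9.25e-05 from limma). HFE, which regulates iron uptake with B2M, differed by -0.87 (adjusted p = 0.0481 from limma). With siGALNT1, HLA-G was called higher in HA22T (1.28, adjusted p = 0.0405 from limma, named after its value was seen). It did not pass with siControl (0.26, adjusted p = 0.734 from limma), where the groups of the lines overlapped. HFE did not pass with siGALNT1 (-0.49, adjusted p = 0.246 from limma). FCGRT was measured on only 1 HA22T siGALNT1 array. The heavy chains of this list were thus not higher together, while B2M was higher.

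Genes that control class I transcription showed calls in both directions. Of 17 genes, 2 were higher and 2 lower in HA22T with siGALNT1. With siControl 3 were higher and 2 lower. Among all genes read from 1 probe each, 2536 of 17893 were called higher and 2285 lower with siControl. IRF1, the interferon-induced activator that binds the interferon motif, was higher by 3.23 on the log2 scale (standard error 0.58, 9.39-fold, adjusted p = 0.00188 from limma). NFYB, a subunit of NF-Y, was higher by 1.58 (adjusted p = 0.00941 from limma) and IRF2 by 1.51 (adjusted p = 0.00303 from limma). RFXANK, a subunit of the RFX complex at the same promoter module, differed by -1.45 (adjusted p = 0.00478 from limma).

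Of the interferon-stimulated genes, 13 of the 24 counted were higher in HA22T with siControl and 1 was lower, from a list of 26, and 10 were higher and 1 lower with siGALNT1. The median difference over the list was 1.44 and 1.22 on the log2 scale. IFI44L was at least 13.1-fold higher and RSAD2, an antiviral enzyme, at least 4.9-fold higher, as neither was above background in PLC5 siControl. IFI44 was higher by 5.20 (adjusted p = 0.00104 from limma). OAS1, an antiviral sensor of double-stranded RNA, went the other way, by -3.26 (adjusted p = 1.95e-05 from limma). IFI27 had no probe with a value in every group.

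Of 12 class II presentation genes, 3 were higher in HA22T and 0 lower with siControl. HLA-DQA1 differed by 2.53 (adjusted p = 0.032 from limma), HLA-DMA by 1.17 (adjusted p = 0.0265 from limma) and HLA-DRA by at least 1.3-fold (adjusted p = 0.0126 from limma), with 2 of the HA22T arrays and 0 of the PLC5 arrays above background. The lists were chosen to fit the pathway with earlier results known. Their counts are of genes read from 1 probe each. Among all such genes, 2536 of 17893 were called higher and 2285 lower with siControl, and 2106 and 2655 with siGALNT1. Of all counted probes, 11.0% were called higher and 11.5% lower with siControl.

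**Figure D3:**
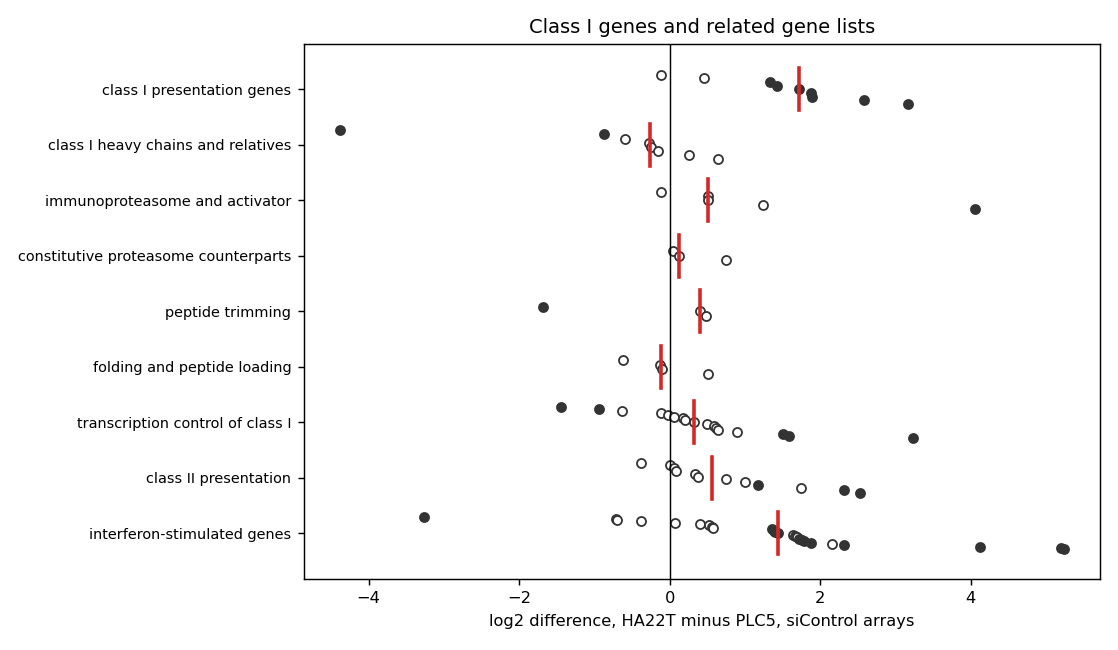
Difference between HA22T and PLC5 with siControl (x axis, log2) for the genes of each list (rows). Each point is 1 gene read from 1 probe, filled where it passed an adjusted p of 0.05, and the red bar is the median of the list. The class I presentation genes have a median of 1.72 and the interferon-stimulated genes 1.44, while the other 7 medians lie between -0.27 and 0.57.

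Knockdown of GALNT1 moved none of the 9 genes past the criterion of the study, a fold change of at least 1.5 with an unadjusted p below 0.05. The count was 0 of 9 genes and 0 of 15 probes in HA22T, where 2.87% of all counted probes met it. In PLC5 it was 0 of 9 genes and 0 of 14 counted probes, where 1.29% of all counted probes did. The dim NLRC5 probe was not counted in PLC5. At an adjusted p below 0.05 in limma the count was also 0 in both lines, where the share of all probes was 0.00275% in HA22T and 0% in PLC5. The targeted GALNT1, read from A_33_P3210218, did not pass this threshold either. It was 34.3-fold lower in HA22T (adjusted p = 0.0708 from limma) and 13.2-fold lower in PLC5. The other GALNT1 probe (A_23_P306105) passed in HA22T (adjusted p = 0.0305 from limma) and not in PLC5. No class I gene had an unadjusted p below 0.05 (0 of 9 in each line), and the test named in the methods of the study also gave 0 calls. When replicate numbers entered the fit as a block, the criterion was met by 1928 probes in HA22T in place of 1043, again with 0 class I genes. The genes related by pathway gave 0 calls in either line as well.

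The differences between siGALNT1 and siControl were small against the spread between arrays. They ran from -0.38 (TAPBP) to 0.14 (HLA-F) on the log2 scale in HA22T and from -0.13 (TAP2) to 0.25 (HLA-B) in PLC5. The smallest unadjusted p was 0.184 in HA22T and 0.438 in PLC5, and every adjusted p was 1 in limma. For HLA-B in HA22T the levels listed above give a siControl mean of 4.50 ± 0.17 (SD, n = 3), and siGALNT1 gives 4.52 ± 0.47 (SD, n = 3). For B2M in HA22T the means were 4.17 ± 0.30 (SD, n = 3) and 4.05 ± 0.26 (SD, n = 3). The groups overlapped for both genes. TAPBP in HA22T, the member with the smallest p, had means of 3.99 ± 0.22 (SD, n = 3) and 3.61 ± 0.32 (SD, n = 3), and its groups overlapped too (exact permutation p = 0.2).

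TAP1 in PLC5 was the only gene of the 9, read from its brightest probe, whose siRNA groups did not overlap in a line. All 3 siGALNT1 arrays were above all 3 siControl arrays, with a difference of 0.17 and a two-sided exact permutation p of 0.1, the smallest possible. The second HLA-B probe did the same in PLC5 (difference 0.44, exact permutation p = 0.1). Neither met the criterion of the study. The 95% intervals of the 9 differences spanned -1.26 to 0.82 in HA22T and -1.02 to 0.92 in PLC5, and each of the 9 reached past 0.58, the log2 of 1.5, on at least 1 side. A change of 1.5-fold thus lay within the error of these arrays.

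**Figure D4:**
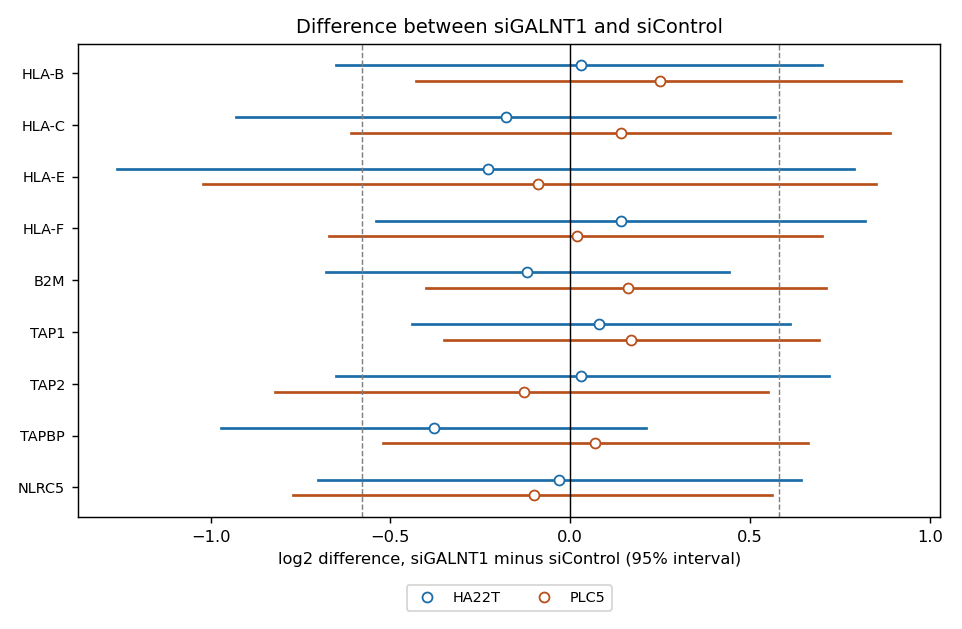
Difference between siGALNT1 and siControl for each class I gene (x axis, log2, with 95% intervals from the fit) in HA22T (blue) and PLC5 (orange). Dashed lines mark a fold change of 1.5 (0.58 on the log2 scale). All symbols are open, as none met the criterion, and they lie between -0.38 and 0.25.

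The siRNA effect was also compared between the lines by an interaction term. The differences of the effects ran from -0.45 (TAPBP) to 0.17 (TAP2), with a smallest unadjusted p of 0.26 and adjusted p of 0.988 to 0.993 in limma. The count was 0 of 9 genes at an adjusted p below 0.05, where 0% of all probes passed, and 0 of 9 at an unadjusted p below 0.05, where 2.43% did.

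The genes were also compared with each other across the 12 arrays, as a description, since the lines form separate clusters and the arrays share their scaling. After the mean of each line was removed, Pearson's r was 0.834 between HLA-B and HLA-C and 0.839 between B2M and TAP1. It was -0.0888 between TAP1 and TAP2, the subunits of the pump, and 0.651 between HLA-F and NLRC5. In the same measure B2M had r = 0.55 and HLA-F r = -0.56 with GAPDH, a metabolic gene outside the pathway, and r with GAPDH was -0.15 for HLA-B, -0.345 for HLA-C and 0.268 for TAP1. GAPDH itself differed by 0.27 between the lines with siControl and by 0.01 with siGALNT1.

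The genes whose pattern over the 12 arrays was most like that of B2M, among 14351 genes counted in both lines with a value on every array, were GPC1 (r = 0.993), SNX24 (r = 0.992), PSAP (r = 0.992), SLC25A29 (r = 0.992) and LY6E (r = 0.991). Within a line r was lower, 0.939 in HA22T and 0.782 in PLC5 for GPC1. For NLRC5 they were PRTFDC1 (r = 0.986), NAA16 (r = 0.983), ZNF74 (r = 0.981), WNT5B (r = 0.979) and THBS1 (r = 0.977). Within HA22T, r with NLRC5 was 0.0656 for PRTFDC1 and -0.322 for THBS1. A high r over all arrays mostly records the step between the lines, and 587 genes had r above 0.95 with B2M and 168 with NLRC5.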

How the data were processed

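RNA of 4 groups (HA22T or PLC5 with siControl or siGALNT1, 3 arrays each) was measured on one-color arrays. The authors scanned the arrays with Feature Extraction 10.5.1.1 and deposited spot intensity values (processed signal, with the background subtracted, and median brightness) with flags. A log2 table by probe, deposited beside them, has a scaling that is not stated, and the 75th percentile of its columns is about 0. It served as an alternative.

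The log2 of the processed signal was taken minus that of the 75th percentile of the array, computed over all spots other than controls. Spots flagged as non-uniform (489 to 3633 per array) were then left out, as in the methods of the study, and spots of a probe were averaged. Probes were named by RefSeq transcript without version in a table of GRCh38.p14 (28174 of 50599 matched). One limma fit (version 3.58.1, R 4.3.3, lmFit and eBayes) held all 4 groups and no covariates, after tests on simulated arrays. A probe was counted when 3 or more of the 6 arrays of a line showed it well above background (of either line for comparisons between lines). Benjamini-Hochberg adjustment ran over counted probes, with 0.05 as threshold. The brightest probe by its mean over 12 arrays, among those with a value in every group, stood for a gene. Exact permutation tests were two-sided. Intervals are 95% intervals of the fit.

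All 9 genes were named with every probe, with GALNT1 and GAPDH as checks. Genes of the pathway lists were named when called between the lines with siControl and among the 4 largest differences of their list, and exceptions are marked, cell type markers included. Values of some genes on these lists are not reported here. The 5 genes most like B2M and NLRC5 were ranked by Pearson's r. The genes and lists were chosen with earlier results of these data known.

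Alternatives were normexp on the median spot brightness (offset 50), quantile normalization, median scaling, the deposited table, no filter or a filter on all 6 arrays, non-uniform spots kept, population outliers left out, the slide or replicate number as a block, single slides, a trend in eBayes, the methods' t-test (Student), the mean over probes, each array left out, and, chosen after seeing the data, the percentile over unflagged spots. Same-numbered arrays deviated together in HA22T (correlations 0.513, 0.266 and 0.325, from the values alone, since the labels give only numbers), and less so in PLC5 (0.57, 0.012 and 0.179), so the numbers were taken to pair the HA22T arrays.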

Additional observations from a re-analysis of the deposited data

How the results depend on the processing

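With siGALNT1 against siControl and for the difference of the effects, the count of class I genes called was 0 under every alternative, the replicate block included (0 in each line, and it changed no call of these genes). Over all probes the replicate block gave 1928 calls in place of 1043 in HA22T and 818 in place of 492 in PLC5. Between the lines the count was 7 of 9 under most alternatives. With siControl it was 6 on slide 1 alone and 5 with the mean over probes, and with siGALNT1 it was 5 on slide 1 alone, with the methods' t-test and with the mean over probes. The genes lost were HLA-F and TAP2 (mean over probes), TAP1 and, with siGALNT1, B2M (slide 1), and, with siGALNT1, HLA-C (1.40, adjusted p = 0.101) and HLA-F (1.55, adjusted p = 0.0615) with the methods' t-test. No call between the lines was lost when a single array was left out, and the 7 genes were higher in HA22T under every alternative.

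Signs that turned belonged to differences that had passed no test. Between the lines these were HLA-E with siControl (-0.12), at 0.06 with median scaling, 0.08 in the deposited table, 0.05 with non-uniform spots kept and 0.12 with the slide block, and TAPBP with siGALNT1 (0.01), at -0.17 with quantile normalization, -0.17 with the slide block and -0.16 on slide 1. For siGALNT1 in HA22T they were HLA-B at -0.03 with quantile normalization, median scaling and the mean over probes, HLA-F at -0.12 with normexp, TAP2 at -0.03 with median scaling, and, with the percentile over unflagged spots, B2M at 0 and NLRC5 at 0.09. In PLC5 they were HLA-C at -0.12 and HLA-F at -0.09 on slide 1, TAP2 at 0.04 on slide 2, HLA-E at 0.1 in the deposited table and 0.09 with non-uniform spots kept, NLRC5 at 0.03 with normexp and TAPBP at -0.15 with the mean over probes. For the difference of the effects they were, with normexp, HLA-B at 0.04, HLA-F at -0.13, TAP1 at 0.02 and NLRC5 at -0.08, with TAP1 also at 0.03 with the percentile over unflagged spots and 0.02 on slide 1, and NLRC5 at 0 with median scaling and -0.08 with the mean over probes.

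When each array was left out in turn, differences that passed no test crossed 0. The ranges were -0.32 to 0.09 for HLA-E between the lines with siControl, and -0.76 to 0.24 for HLA-E and -0.18 to 0.19 for TAPBP with siGALNT1. For siGALNT1 in HA22T they were -0.17 to 0.29 for HLA-B, -0.14 to 0.10 for NLRC5, -0.73 to 0.27 for HLA-E, -0.29 to 0.02 for B2M, -0.28 to 0.33 for TAP2, -0.07 to 0.20 for TAP1 and -0.35 to 0.02 for HLA-C. In PLC5 they were -0.11 to 0.46 for HLA-C, -0.18 to 0.25 for HLA-F, -0.04 to 0.26 for TAPBP, -0.33 to 0.17 for NLRC5 and -0.33 to 0.12 for HLA-E. For the difference of the effects they were -0.42 to 0.04 for HLA-B, -0.65 to 0.35 for HLA-E, -0.24 to 0.03 for TAP1, -0.11 to 0.32 for HLA-F, -0.20 to 0.30 for NLRC5 and -0.15 to 0.46 for TAP2.

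The percentile over unflagged spots moved the median of all counted probes from 0.03 to 0.14 (siControl) and from 0.11 to 0.34 (siGALNT1) between the lines, and median scaling moved the first to 0.14. The share of called probes that were higher was 43.7% between the lines with siGALNT1 (59.9% with the percentile over unflagged spots) and 63.3% for siGALNT1 in HA22T (85.5% with normexp, 45.9% with quantile normalization, 51.8% with median scaling, 84.6% with the percentile over unflagged spots, 33.7% without HA22T siGALNT1 replicate 1 and 51.6% without HA22T siControl replicate 1). For siGALNT1 in PLC5 it was 23%, and 13.1% to 48.4% with single arrays left out (48.4% without PLC5 siGALNT1 replicate 1). Between the lines with siControl it was 48.9%. The cause of these shifts was not tested. Counts over all probes that moved by more than 1.5 times were, for siGALNT1 in HA22T (1043), 1959 without a filter on dim probes and 479 with the filter on all 6 arrays. In PLC5 (492) they were 745 without a filter, 124 with the filter on all 6 arrays, 765 on slide 1 and 309 with the methods' t-test. Between the lines they were 3156 on slide 1 and 5226 with the filter on all 6 arrays with siControl (8939), and 3191, 5029 and, with the methods' t-test, 4055 with siGALNT1 (8984). With single arrays left out, the first count ranged from 583 (without HA22T siControl replicate 1) to 1999 (without HA22T siGALNT1 replicate 1) and that of PLC5 from 316 (without PLC5 siControl replicate 2) to 1428 (without PLC5 siGALNT1 replicate 3), with 0 class I genes among them each time. Dim probes of TAP2 and NLRC5 were near background, which limits their values. The interaction could not be run with the methods' t-test, and slide 2 gives no value for HA22T.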
